A study of Mus musculus with 6 samples.

Results

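The insulin-like growth factor (IGF) system was examined in the chromatin of mouse skeletal stem and progenitor cells (SSPCs) through 10 member genes: the ligands Igf1 and Igf2, the receptor Igf1r, its adaptor Irs1 and the binding protein genes Igfbp2, Igfbp3, Igfbp4, Igfbp5, Igfbp6 and Igfbp7. A peak was assigned to a gene when it lay within 1000 bp of a start site (TSS) of one of its protein-coding transcripts, in the gene body, or in the 20 kb upstream. Merging the peaks of all libraries gave 58 such regions of 63840 in the whole series, and no region fell in the loci of more than 1 member. ATAC-seq, in which a transposase cuts open DNA, was performed on passage 1 marrow cultures from the tibiae and femora of untreated C57BL/6 mice, with 3 libraries from young mice (about 12 weeks) and 3 from middle-aged mice (about 52 weeks). The cells were taken from marrow by centrifugation and grown in culture flasks, and no sort is described for these libraries. The labels do not tie a library to an animal or say whether marrow was pooled, so the tests measure the spread between these libraries.

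Peak numbers ranged from 27628 to 43941 in young and from 46364 to 48344 in middle-aged lists. The genome-wide background, in extended reads per base, ran from 1.65 to 3.75 and from 2.40 to 2.79, and young 3 had both the lowest background and the shortest list. Of 10 SSPC genes, 4 to 8 had a TSS peak in a young library and 7 or 8 in a middle-aged one. Kitl, Runx2, Foxc1 and Ebf3 had one in all 6 libraries. Lepr, which marks SSPCs in the study, had none in any library, and neither had Prrx1. Of 10 genes of macrophages and other blood cells, 9 or 10 had a TSS peak in each library, and 9 had it in all 6. The remaining gene, Csf1r, had it in 2 young libraries and in 0 middle-aged ones. The percentile rank of a peak is its place in its own list ordered by −log10 q, from 0 for the weakest to 100 for the strongest. Summed over each gene list, with 0 for a gene without a peak, these ranks ran from 159 to 324 in young and from 357 to 478 in middle-aged libraries for SSPC genes, and from 394 to 458 and from 509 to 554 for blood genes. For 8 endothelial genes, 2 to 5 had a TSS peak per library, Emcn, Tie1 and Sox17 had none, and the sums ran from 108 to 119 and from 108 to 196. All protein-coding genes shifted the same way, with a mean of 11715 having a TSS peak in young and 12592 in middle-aged libraries. Among the 10569 with one in every library, 30.6% ranked higher in middle-aged libraries without overlap and 0.274% lower. Their median difference was 4.97 points. The part of blood cells in the values of the IGF loci was not tested. In such cultures, fewer cells with an open site and less open chromatin per cell cannot be told apart.

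IGF1 and IGF2 are secreted peptides that bind the receptor tyrosine kinase encoded by Igf1r, which phosphorylates insulin receptor substrates such as IRS1 and so activates phosphoinositide 3-kinase and AKT. The IGF-binding proteins hold IGFs in extracellular fluid and control how much ligand reaches the receptor, and IGFBP7 binds IGFs only weakly. In bone, osteoblast-lineage cells make IGF1, store it in matrix and respond to it during bone formation.

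The windows below lie at the summits of the best region away from the TSS of each member that had one in at least 4 libraries, of the regions found in all middle-aged and no young libraries, and of the region with the largest rank difference among those whose ranks did not overlap between the groups. They are written 5′ to 3′ on the plus strand of GRCm38.p6 (mm10). Regions lying in an exon or within 1000 bp of a start of another coding gene are not shown. Capitals mark matches on either strand to AP-1 (TGANTCA), RUNX (TGTGGT), TEAD (GGAATG), EBF (CCCNNGGG), CEBP (TTGCNNAA), the CCAAT box (CCAAT) or a TATA box (TATAAA). The last 2 words were added after the windows had been read.
Igf1 intron, +47.7 kb, chr10:87908885-87909084: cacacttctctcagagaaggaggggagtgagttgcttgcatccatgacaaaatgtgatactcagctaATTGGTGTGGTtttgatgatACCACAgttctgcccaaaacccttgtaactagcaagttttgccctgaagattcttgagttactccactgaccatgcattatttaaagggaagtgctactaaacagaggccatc
Igf1r intron, +176.4 kb, chr7:68129091-68129290: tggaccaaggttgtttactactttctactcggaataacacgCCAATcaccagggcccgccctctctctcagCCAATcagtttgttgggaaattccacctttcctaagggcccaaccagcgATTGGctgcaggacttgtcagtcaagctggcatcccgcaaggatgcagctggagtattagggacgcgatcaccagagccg
Irs1 intron, +8.0 kb, chr1:82283288-82283487: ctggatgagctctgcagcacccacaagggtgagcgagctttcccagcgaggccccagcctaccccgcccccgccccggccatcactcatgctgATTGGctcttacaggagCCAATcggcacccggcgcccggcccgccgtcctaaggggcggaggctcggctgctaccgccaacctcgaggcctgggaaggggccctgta
Igfbp2 intron, +14.3 kb, chr1:72839514-72839713: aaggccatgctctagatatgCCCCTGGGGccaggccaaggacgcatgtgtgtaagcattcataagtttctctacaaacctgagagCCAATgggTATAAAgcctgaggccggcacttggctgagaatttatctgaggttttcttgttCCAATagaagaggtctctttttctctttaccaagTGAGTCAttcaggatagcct
Igfbp7 intron, +35.0 kb, chr5:77372915-77373114: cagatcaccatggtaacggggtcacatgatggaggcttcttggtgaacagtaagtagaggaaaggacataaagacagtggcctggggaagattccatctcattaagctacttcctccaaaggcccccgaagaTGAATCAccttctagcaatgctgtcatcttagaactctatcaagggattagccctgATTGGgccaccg
Igf1r intron, +69.1 kb, chr7:68021849-68022048: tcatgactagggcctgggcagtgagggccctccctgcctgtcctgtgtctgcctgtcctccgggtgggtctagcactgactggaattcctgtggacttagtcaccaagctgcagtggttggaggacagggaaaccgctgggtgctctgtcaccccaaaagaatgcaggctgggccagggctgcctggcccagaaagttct
Igf1r intron, +101.8 kb, chr7:68054567-68054766: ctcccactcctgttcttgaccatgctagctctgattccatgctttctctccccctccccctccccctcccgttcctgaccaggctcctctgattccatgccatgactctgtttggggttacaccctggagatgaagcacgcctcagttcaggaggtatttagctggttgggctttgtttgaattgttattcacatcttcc
Igfbp4 promoter, chr11:99041121-99041243: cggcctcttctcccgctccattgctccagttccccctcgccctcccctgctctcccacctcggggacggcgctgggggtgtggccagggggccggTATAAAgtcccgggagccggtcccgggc

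The Igf1 intron window held a RUNX word on each strand. RUNX factors bind this word, and RUNX2 directs osteoblast differentiation. The 2 strongest regions away from any coding TSS, in introns of Igf1r and Irs1, held 3 and 2 CCAAT words, the element bound by NF-Y. These windows prompted the search for CCAAT, so its counts here are a description. The Igfbp4 promoter carried its TATA word 28 bases before the TSS. Over all 58 member regions, the AP-1 word occurred in 6 (10.3%, against 16.0% of all 63840 regions), RUNX in 13 (22.4% against 21.2%), TEAD in 9 (15.5% against 12.8%), EBF in 3 (5.17% against 8.64%) and CEBP in 9 (15.5% against 11.1%). Of the 13 regions that were called in every library and lay away from coding TSSs, 1 held an AP-1 word (7.69%, against 22.2% of all 12031 such regions), 3 a RUNX word (23.1% against 24.8%), 2 a CEBP word (15.4% against 14.6%) and 1 a TEAD word (7.69% against 10.9%). None of the 13 held an EBF word (6.56% of all) or a TATA word (7.16%), and 5 held a CCAAT word (38.5% against 21.1%), among them the windows that prompted its search. At least 2 CCAAT words occurred in 2 of the 13 (15.4% against 3.03%), and at least 3 in 1 (7.69% against 0.499%). Both are the Igf1r and Irs1 windows that prompted the search. The CCAAT word occurred in 12 of the 58 regions (20.7% against 23.2%) and the TATA word in 6 (10.3% against 6.58%). These matches describe letters in a window and not bound sites.

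The first comparison asked whether the starts of the IGF genes were open in both age groups. Igf1, Igf1r, Irs1 and Igfbp7 had a TSS peak in all 6 libraries, 40% of the members against 48.4% of 21853 protein-coding genes. Igfbp2, Igfbp5 and Igfbp6 had none in any library (30% against 38.5%). The number of members with a TSS peak was 4, 5 and 4 in young 1, 2 and 3, and 6 in each middle-aged library, with means of 4.33 ± 0.577 (SD, n = 3) and 6 ± 0 (SD, n = 3). Behind this gap lay Igf2, Igfbp3 and Igfbp4. Of these, 2 members, Igf2 and Igfbp4, had a TSS peak in at least 2 more middle-aged than young libraries, as did 2.78% of all genes. No member had one in at least 2 more young libraries, beside 0.11% of all genes. None had it in 3 of 3 middle-aged and 0 of 3 young libraries either, beside 0.476%. In equally long lists, cut to the 27628 best peaks, the gap was 0.333 genes. After scaling each list to the lowest background, it was 2 genes. A missing peak means only that a site stayed under the caller's threshold. The smallest summit pileup in a list was 8 to 13 overlapping reads.

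**Figure D1:**
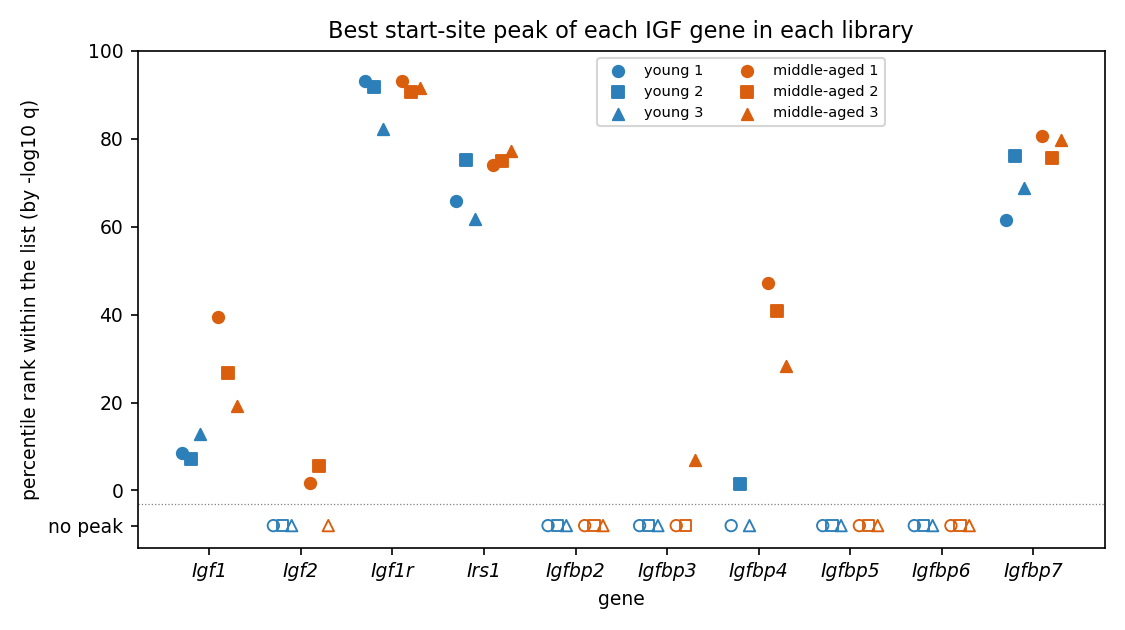
Percentile rank of the best TSS peak of each IGF gene (vertical axis, 0 for the weakest and 100 for the strongest peak of a list by −log10 q) by gene, with 1 symbol per library, young in blue and middle-aged in orange, and open symbols where no peak was called. Igf1r stood at rank 82.3 or higher in every library, Igf1 did not overlap between the groups, and Igfbp2, Igfbp5 and Igfbp6 had no TSS peak.

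Among the ligands, Igf1 had a TSS peak in the lower ranks of every list, lying over 5′ UTR sequence and with its summit within 86 bp of an annotated start. Its percentile rank by −log10 q was 8.52 in young 1, 7.20 in young 2 and 12.9 in young 3, against 39.4, 26.6 and 19.2 in the middle-aged libraries. All middle-aged ranks were thus above all young ones, with a mean difference of 18.9 percentile points (two-sided exact permutation p = 0.1, the smallest that 3 against 3 libraries allow). The difference could not be computed with a minimum −log10 q of 5, in equally long lists or after scaling to the lowest background, where Igf1 lacked a TSS peak in at least 1 library. Igf1 was the 1 member with a TSS peak in all libraries whose ranks did not overlap, and 30.6% of the 10569 genes with such a peak also had higher ranks in every middle-aged library. Its fold enrichment, the pileup of reads at the summit over the local background, was 3.45, 3.48 and 4.40 in young against 4.68, 4.03 and 3.82 in middle-aged libraries. These fold values overlapped (two-sided exact permutation p = 0.4). Summit pileups were 21, 19 and 16 overlapping reads in young against 25, 24 and 24 in middle-aged libraries. Igf2, the ligand used mainly before birth in mice, had a peak of 14 overlapping reads at an internal start in middle-aged 1 and 2, at ranks 1.58 and 5.65. The region merged from these peaks lay within 1000 bp of a start of the antisense gene Igf2os. No young library had a peak there.

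The receptor gene Igf1r had the strongest TSS peak among the members. Its ranks were 93.1, 91.7 and 82.3 in young against 93.1, 90.5 and 91.5 in middle-aged libraries, and the groups overlapped (two-sided exact permutation p = 0.9). The fold was 9.73 ± 1.11 (SD, n = 3) in young against 10.2 ± 0.602 (SD, n = 3) in middle-aged libraries. The summits lay 1015 to 1079 bp upstream of the annotated start at chr7:67952827, in sequence with 80.5% GC. The window of 1000 bp therefore caught the edge of this peak and not its summit. With a window of 500 bp the Igf1r difference was 18.7 points (two-sided exact permutation p = 0.3). That window reached the main peak in middle-aged 1 alone, where it ended at chr7:67952421. In every other library the main peak ended at chr7:67952070 or before, so another peak was ranked. The 18.7 points therefore set unlike peaks against each other. Irs1, the receptor's adaptor, ranked at 65.7, 75.2 and 61.8 in young and at 74.0, 74.9 and 77.3 in middle-aged libraries. Its difference of 7.81 points did not exceed the spread (two-sided exact permutation p = 0.3). Its peaks were 838 to 1126 bp wide and reached into the 5′ UTR.

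Of the binding protein genes, Igfbp7 had a TSS peak in every library, at ranks 61.4, 76.1 and 68.7 in young against 80.5, 75.6 and 79.6 in middle-aged libraries. The difference was 9.83 points and the groups overlapped (two-sided exact permutation p = 0.2). Igfbp4, whose product binds IGFs and is cleaved by PAPP-A, had a promoter peak in all 3 middle-aged libraries, at ranks 47.1, 40.9 and 28.2 and folds of 4.65, 4.35 and 3.76. No young library had a peak there. Young 2 alone had a different peak, 231 bp downstream of the start, at rank 1.49. Outside the window, 1.32 kb upstream, a region ranked at 28.3 in young 1, 46.7 in young 2 and 51.9 in middle-aged 3. It was called in no other library. The middle-aged promoter peak held 31, 29 and 29 overlapping reads. Igfbp3 had a TSS peak in middle-aged 3 alone, at rank 6.87, over a coding exon. The median difference over the 4 members with a TSS peak in every library was 8.82 points, beside 4.97 points over all 10569 such genes. In equally long lists Igf1 had no TSS peak in some libraries and dropped out, and Igf1r, Irs1 and Igfbp7 differed by −0.877, −1.21 and 3.28 points.

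The other genes of the pathway were described in the same way. Of 40 further genes, 35 had a TSS peak in at least 1 library and 29 in all 6. Among the 29, the ranks of 10 were higher in every middle-aged than in every young library and those of 0 were lower, beside 30.6% and 0.274% of all genes, and the median difference was 4.96 points. Igfbp1, the mRNA-binding protein gene Igf2bp1, the IGFBP proteases Pappa and Pappa2 and their inhibitor Stc1 had no TSS peak in any library. Igf2r, the receptor that clears IGF2, had one in 1 young library at rank 8.32 and in all 3 middle-aged ones at ranks 40.7, 53.5 and 52.3. The 3 largest differences without overlap were those of the transcription factor Foxo4, from 40.8 ± 9.60 (SD, n = 3) to 73.5 ± 7.37 (SD, n = 3), of the kinase Akt1, by 20.3 points, and of Tsc1, a brake on mTOR, by 16.8 points (two-sided exact permutation p = 0.1 for each).

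The loci of the members differed widely in the number of open regions. Igf1r had 26 regions in 301 kb and Igfbp7 had 13 in 78.8 kb. Igf1 had 6, Igfbp4 5, Irs1 and Igf2 2 each, and Igfbp2, Igfbp3, Igfbp5 and Igfbp6 1 each. Per 100 kb, Igfbp7 had 16.5, Igfbp4 15.1 and Igf1r 8.64 regions, while Irs1 had 2.55 and Igfbp2 2.08. At the members' own starts lay 10 of the 58 regions. Of the 58, 19 were called in all 6 libraries (32.8%, against 35.1% of all regions) and 13 in 1 library (22.4% against 23.0%).

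**Figure D2:**
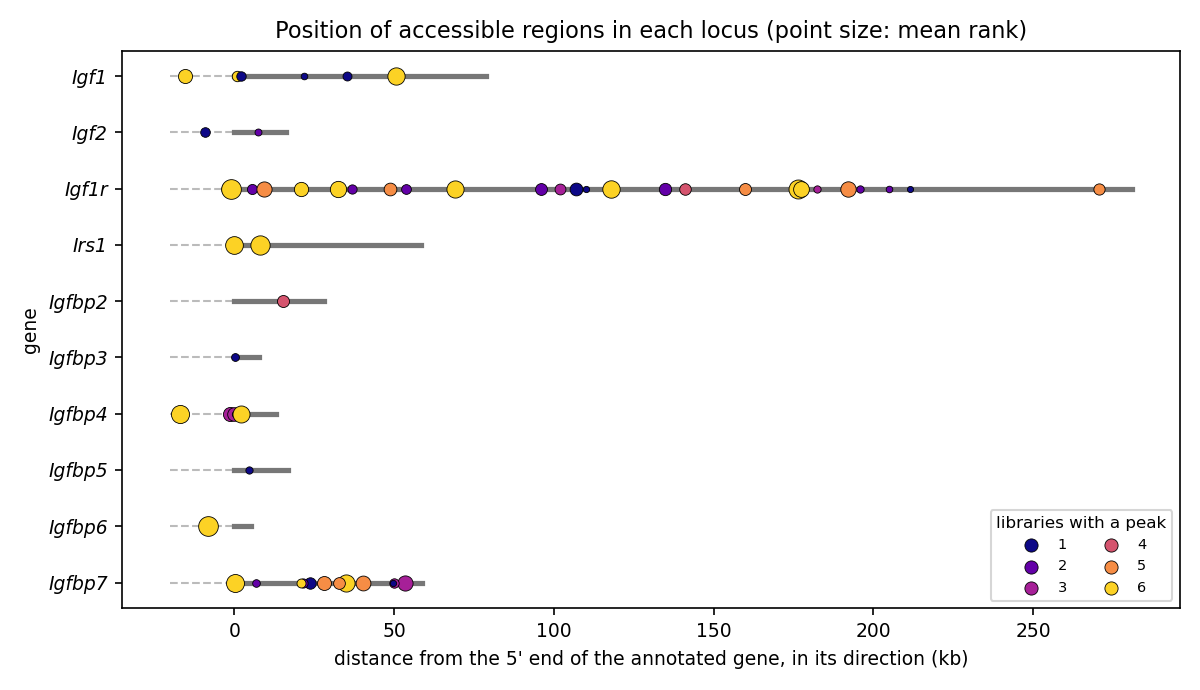
Position of the 58 regions along each IGF locus, in kb from the 5′ end of the annotated gene and in its direction, with the gene body as a solid line and the 20 kb upstream dashed. Colour gives the number of libraries with a peak and point size the mean percentile rank, and the 26 regions of Igf1r are spread along the gene, with those called in all 6 libraries up to 177.3 kb from its start.

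In Igf1, 3 regions were called in all libraries: the TSS region, one 15.6 kb upstream and the intronic region shown above, 47.7 kb downstream of the nearest start. The latter had ranks of 63.8, 76.5 and 31.9 in young against 75.1, 79.2 and 79.2 in middle-aged libraries, well above those of the Igf1 TSS in the same lists. Its groups overlapped (difference 20.4 points), and young 3 held the lowest value. In Irs1, the intronic region 8.0 kb downstream of the start ranked at 84.4, 90.4 and 73.0 in young and at 88.2, 92.2 and 89.0 in middle-aged libraries. It stood above the Irs1 TSS peak in every library. The 2 Irs1 regions were the whole of what was called in its 78.3 kb.

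In Igf1r, 8 of 26 regions were called in every library. The strongest away from the TSS, 176.4 kb into the gene, ranked at 71.7, 82.0 and 79.7 in young and at 87.8, 89.1 and 90.4 in middle-aged libraries. Its fold was 6.76, 8.95 and 9.26 in young against 11.7, 11.6 and 11.7 in middle-aged libraries. The region 69.1 kb into the gene ranked at 45.2, 67.7 and 50.5 in young and at 79.5, 75.9 and 80.7 in middle-aged libraries. Both its rank and its fold separated the groups, with folds of 5.25, 8.42 and 6.91 against 10.8, 10.7 and 10.4. The same held for the 176.4 kb region and for the regions 16.9 kb upstream of Igfbp4 and 8.07 kb upstream of Igfbp6. The share of all regions whose folds separated the groups is not given here, so this is only a description. By rank, 24.3% of all 22403 regions called in every library were higher in middle-aged libraries without overlap, and 0.495% were lower. These folds are not centred. Without centring, 4705 of all 22403 regions were higher and 44 lower in middle-aged libraries, at an unadjusted p under 0.05 in the limma test below. The region 101.8 kb into the gene was called in the 3 middle-aged libraries alone, at low ranks of 33.5, 6.84 and 23.5 and with summits of 18, 13 and 18 overlapping reads.

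Among the binding protein loci, those of Igfbp2, Igfbp5 and Igfbp6 held 1 region each, in about 48, 37 and 25 kb. Igfbp2, abundant in the circulation, had 1 intronic region, called in young 1 and 2 at ranks 13.9 and 14.9 and in middle-aged 2 and 3 at ranks 44.2 and 39.2. Igfbp5, a binding protein that associates with bone matrix, had 1 region, called in middle-aged 3 alone at rank 4.69. The 1 region assigned to Igfbp6 ranked from 87.3 to 89.2 in young and from 90.1 to 93.8 in middle-aged libraries. However, it lay 8.07 kb upstream, within 1000 bp of a start of Spryd3. Likewise, the region 16.9 kb upstream of Igfbp4 lay within 1000 bp of a start of Top2a, which encodes a topoisomerase of dividing cells. Its ranks were 70.4, 73.5 and 65.5 in young against 82.7, 79.0 and 78.8 in middle-aged libraries. Within Igfbp4, an intronic region 1.53 kb downstream of a start was called in every library, at ranks from 58.9 to 65.2 in young and from 62.6 to 72.9 in middle-aged libraries. In Igfbp7, the intronic region 35.0 kb from the start ranked from 57.4 to 65.3 in young and from 63.6 to 76.7 in middle-aged libraries. A weaker one 20.8 kb from the start, within 1000 bp of a start of the antisense gene Gm34648, ranked from 0.679 to 30.2 and from 4.75 to 20.7.

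**Figure D3:**
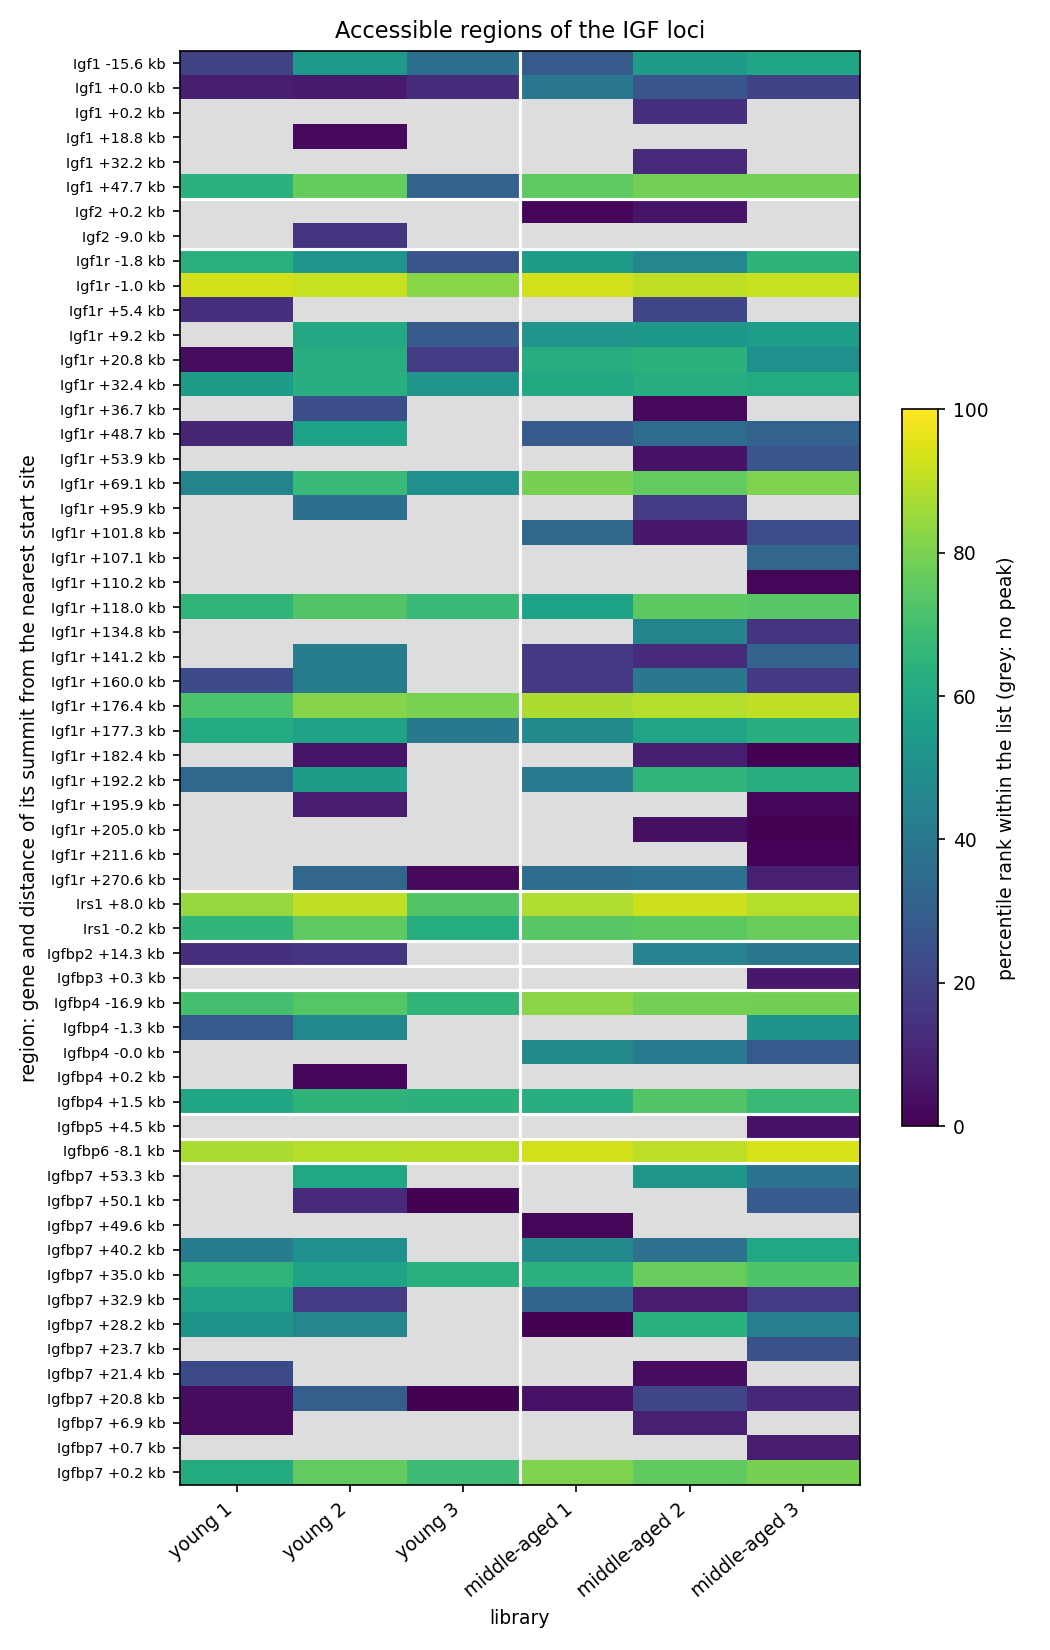
Percentile rank of the 58 regions (rows, named by gene and distance of the summit from the nearest TSS in kb) in the 6 libraries (columns), with grey where no peak was called. Regions called in all libraries ran from rank 0.679 to rank 93.8, and the column of young 3 has the most grey cells, with 22 regions called.

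The second comparison asked whether the IGF loci held more called regions with age. Young 1, 2 and 3 had 30, 39 and 22 of the 58 regions, and middle-aged 1, 2 and 3 had 32, 44 and 46. The ratio of the means was 1.34, beside 1.33 over all regions, and the young 2 count lay above that of middle-aged 1. In Igf1r the counts were 12, 18 and 10 in young against 15, 22 and 23 in middle-aged libraries (two-sided exact permutation p = 0.2). In Igfbp7 they were 8, 8 and 4 and 7, 9 and 10 (two-sided exact permutation p = 0.4). Over the members, cutting the lists to equal length gave a ratio of 0.956, and scaling them to the lowest background gave 1.35. Of the 8 regions called in 5 libraries, 6 lacked a peak in young 3 and 2 in young 1, and over all 7339 such regions young 3 was the missing library in 74.8%.

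Regions called in every library of 1 age group and in none of the other were few. The Igfbp4 promoter and the Igf1r region 101.8 kb into the gene were called in 3 of 3 middle-aged and 0 of 3 young libraries, 2 of 58 where the share over all regions was 2.21%. None of the 58 was called in all young and no middle-aged library, beside 0.036% of all regions. Without middle-aged 1 the count of 2 became 5, and in equally long lists it was 0. After scaling to the lowest background the count was 2.

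Strength was then compared for the 19 regions called in every library. All 19 had a higher mean rank in middle-aged libraries, whose lists were all longer. The share of all regions with a higher mean rank is not given here, so this count is only a description. In 5 of the 19 the groups did not overlap. These were the 69.1 kb region of Igf1r (24.3 points higher), the Igf1 TSS region (18.9), the 176.4 kb region of Igf1r (11.3), the region near the start of Top2a (10.3) and that near the start of Spryd3 (3.83), each with a two-sided exact permutation p = 0.1. In equally long lists the 69.1 kb region still separated the groups (21.1 points, two-sided exact permutation p = 0.1). There the 176.4 kb region differed by 9.97 points (p = 0.2), that at Top2a by 4.48 (p = 0.3) and that at Spryd3 by 1.87 (p = 0.8) in the same exact permutation test, and the Igf1 TSS region had no value. After scaling to the lowest background, the 69.1 and 176.4 kb regions differed by 26.1 and 12.2 points (two-sided exact permutation p = 0.1 for each). The regions at Top2a and Spryd3 then differed by 11.3 and 4.25 points (two-sided exact permutation p = 0.1 for each). Over all 22403 regions called in every library, 24.3% were higher without overlap and 0.495% were lower. A rank depends on the length of its list, and all middle-aged lists were longer than all young ones.

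The fold enrichment, centred on the median of each library, was therefore tested with limma across the 22403 regions. No region passed an adjusted p of 0.05 (Benjamini-Hochberg), in either direction, so 0% of all regions and 0 of the 19 were called. At an unadjusted p under 0.05 there were 2 of the 19, beside 7.91% of all regions, with 1 higher and 1 lower in middle-aged libraries, beside 3.05% and 4.86%. The 69.1 kb region of Igf1r was higher in middle-aged libraries by 0.42 on the log2 scale (SE 0.14, unadjusted p = 0.00975, limma adjusted p = 0.539). The region 177.3 kb into Igf1r was lower, at −0.30 (SE 0.13, unadjusted p = 0.0365, limma adjusted p = 0.602). Its neighbour, the 176.4 kb region, differed by 0.26 (SE 0.13, limma adjusted p = 0.647). The Igf1 TSS region, which separated the groups by rank, differed by −0.09 (SE 0.16, limma adjusted p = 0.922). Of the 19 differences 8 were positive and 11 negative, from −0.30 to 0.42 with a median of −0.09, beside a median of −0.02 over all regions. The sign of the members' median depended on the scaling. It was 0.15 without centring, where the median of all regions was 0.21, and 0.07 with the pileup over the genome-wide background, where that of all regions was 0.03. Without young 3 it was 0.0032, beside −0.02.

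**Figure D4:**
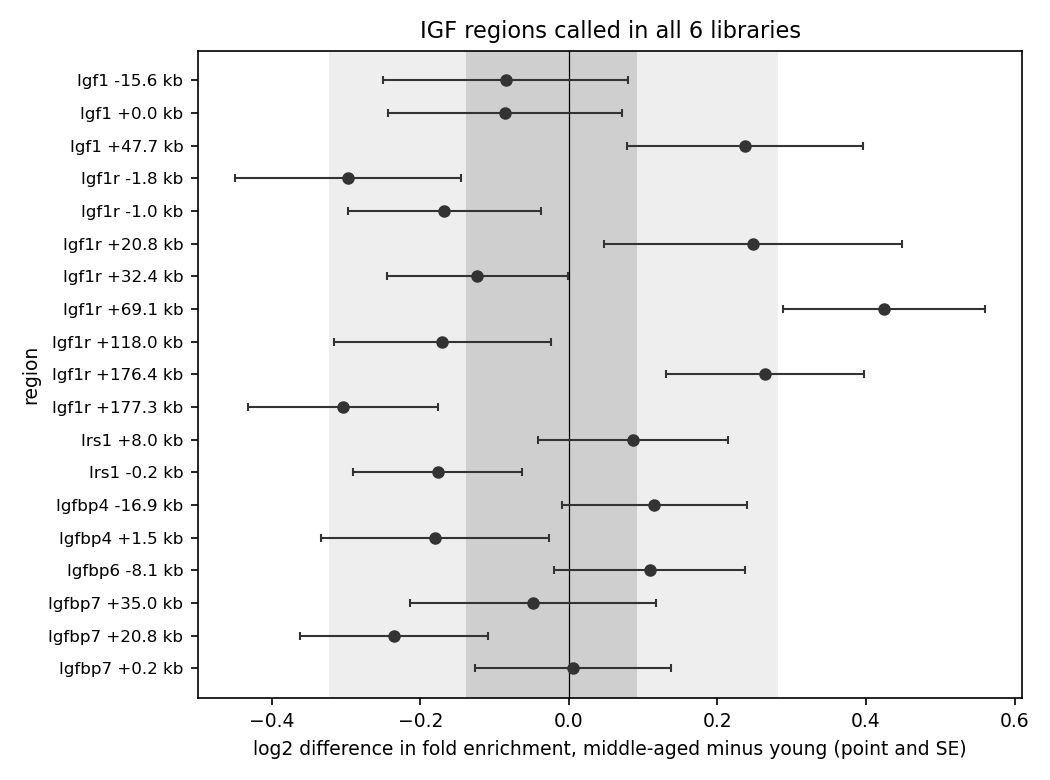
Difference in log2 fold enrichment, middle-aged minus young (horizontal axis; points, with bars for the limma SE), for the 19 IGF regions called in all 6 libraries, each library centred on its median. Dark and light grey bands hold the middle 50% and 90% of all 22403 regions, and the 69.1 kb region of Igf1r is the one point right of the light band.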

How the data were processed

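ATAC-seq peak lists of 3 young and 3 middle-aged SSPC libraries were analysed, grouped by the sample titles. The authors aligned reads to mm10 with Bowtie2, removed duplicates with Sambamba and called peaks with MACS per library. The deposited fold enrichment is a linear ratio of summit pileup to local background, with 1 added to each. The authors also deposited the −log10 p-value and −log10 q-value of each peak. The deposited score was not used. Transposase shifting is not given in the sources used here. Read totals are unknown. The pileup and background at each summit were solved from fold and p (whole pileups for 100% of peaks, within 0.01 in −log10 p), and the lowest background of a list served as its relative depth.

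TSSs (54361, of 21853 genes) came from GENCODE. Peaks overlapping by 1 bp were merged. Regions called in all 6 libraries were tested with limma 3.58.1 (R 4.3.3) on median-centred log2 fold, adjusted by Benjamini-Hochberg, and single values with an exact permutation test over 20 assignments (scipy 1.17.1). The limma script was tested on simulated data. The study's DiffBind test needs reads and was not repeated. Members, gene lists and motifs were chosen with earlier results of these data known. All 10 members were described. Named among the other 40 pathway genes were those with no TSS peak, those differing by at least 2 libraries, and the 3 largest rank differences without overlap. Named regions were each member's best TSS region and best region elsewhere, and the 5 largest rank differences without overlap. Those called in all libraries of 1 age group and in none of the other were also named. Alternatives were a minimum −log10 q of 5, equally long lists, scaling to the lowest background, TSS windows of 500 and 2000 bp, ranking by fold, 5 kb upstream, 50% reciprocal overlap, other centring, a replicate block and leaving out each library.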

Additional observations from a re-analysis of the deposited data

How the results depend on the processing

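The comparisons at the IGF loci depended most on the length of the peak lists. In equally long lists, the gap in members with a TSS peak was 0.333 genes (1.67 in the full lists). The median rank difference at the TSS was −0.877 points over Igf1r, Irs1 and Igfbp7 (8.82 over all 4 in the full lists), Igf1 having dropped out. The ratio of called regions in member loci was 0.956 (1.34), and 0 regions (2) were called in all middle-aged and no young libraries. There, Igf1r, Irs1 and Igfbp7 differed at the TSS by −0.877, −1.21 and 3.28 points. Igf1 gave no value there, with a minimum −log10 q of 5 or after scaling to the lowest background. With scaling, the gap was 2 genes and the median rank difference was 8.80 points over Igf1r, Irs1 and Igfbp7. The ratio of called regions was then 1.35, and 2 regions were called in all middle-aged and no young libraries. With a −log10 q of at least 5, 1 region was called in all middle-aged and no young libraries. The gap in members was 1 with TSS windows of 2000 bp, and the median rank difference was 14.3 points with windows of 500 bp, where that of Igf1r was 18.7. The 500 bp window reached the main Igf1r peak in middle-aged 1 alone, so both values rest on unlike peaks. The cause of these changes was not tested beyond the construction of each setting. Leaving out 1 library gave 1.5 to 2 members, 6.53 to 12.6 points and a ratio of 1.18 to 1.56. From 2 to 5 regions were then called in all remaining middle-aged and no remaining young libraries, with 5 reached without middle-aged 1. The Igf1r TSS difference then ran from −0.70 (without young 3) to 4.70 points. No member region was called in all young and no middle-aged libraries under any setting tried. In all, 74 recomputed values of these comparisons and 155 of single genes and regions kept their direction and their side of the threshold, or stayed within 1.5 times for counts. The values after scaling were among these.

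By limma, 0 of the member regions were called in either direction under all 12 alternatives, and so was 0 of all regions tested. At an unadjusted p under 0.05, 683 regions were higher and 1089 lower, against 4705 and 44 without centring. The log2 difference of the Igf1 TSS region was −0.09, but 0.15 without centring, 0.045 with quantile normalization, 0.047 with pileup over the genome-wide background, and from −0.22 to 0.061 when 1 library was left out (0.061 without young 3). The replicate numbers did not pair the libraries (correlations of deviations from −0.0414 to 0.00276). With the replicate block, the ratio of called regions was taken within each replicate number and averaged. This gave 1.43, which is not the ratio of the means given above. The median rank difference was 8.82 points and limma made 0 calls. A peak absent from a list may lie under its threshold, and 3 libraries a group cannot give a permutation p under 0.1.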
